A study of Mus musculus with 321 samples.

Results

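Most ATAC-seq regions that wild-type thymocytes held away from gene ends had no peak call in thymocytes without Tcf-1, and 2852 such distal regions had one with and without it. Away from gene ends does not mean outside genes, since 1766 of the 2852 lie inside a protein-coding gene. The kept regions came from 31628 open regions, made by merging the ATAC-seq peaks of 4 libraries of CD4+CD8+ double-positive (DP) thymocytes wherever peaks shared at least 1 bp. A region was counted as kept distal if both Tcf-1 knockout (KO) and both wild-type (WT) libraries had a peak in it and its midpoint lay more than 1 kb from either end of any protein-coding gene. Of the 13241 distal regions with a peak in both WT libraries, the 2852 kept ones were 21.5%. A further 1769 had a peak in 1 KO library, and 8620 (65.1%), called lost here, had one in neither. Closer to gene ends, 6387 regions were held by all 4 libraries, and over all distances the kept share was 9239 of 21952 (42.1%). These regions were chosen by the peak calls of the 4 DP libraries, so every DP value below is a description and carries no test.

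The KO thymocytes carried the TCF-1-/- deltaVII genotype and the WT thymocytes were C56BL/6 (WT), as the labels spell both. Both were DP T cells sorted by flow cytometry from the animal. Age and sex are not given in the labels, and nothing says that the 2 libraries of a genotype came from separate animals. The other readouts came from NIH3T3, an established fibroblast line of NIH/Swiss mice at passage 8-12. For ATAC-seq it carried a retrovirus with Tcf-1 (Tcf-1 RV, 4 libraries) or an empty one (Empty RV, 4 libraries). H3K27me3, H3K9me3 and Tcf-1 binding were mapped in NIH3T3 by ChIP-seq. The Tcf-1 summits are those of cells with Tcf-1 RV, and the titles of the H3K27me3 and H3K9me3 libraries used here name no virus.

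Tcf-1 is a DNA-binding protein of the HMG-box family that acts downstream of Wnt and Notch signals and is needed for early T cell development. ATAC-seq marks stretches of DNA that are free enough of nucleosomes for a transposase to insert. Such stretches away from gene ends hold enhancers, insulator sites bound by CTCF, and promoters from which shorter or alternative transcripts start.

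The KO peak lists were the shorter ones, with 11171 and 12209 peaks, against 23249 and 30985 in WT. The NIH3T3 lists held 36583 to 62639 peaks with Tcf-1 RV and 22778 to 58026 with Empty RV. Sequencing depth is not given, so fewer open regions and fewer calls cannot be told apart, and neither can fewer cells with a region open and less opening per cell. Of 5 thymocyte marker genes (Cd3e, Cd4, Cd8a, Rag1 and Ptcra), 1 and 3 had a peak inside or within 1 kb in the KO libraries, against 5 and 5 in the WT libraries. In NIH3T3 the count was 0 or 1 in each library. Of 20 fibroblast genes, 1 and 2 had a peak in the KO libraries and 4 and 9 in the WT libraries, while each NIH3T3 library had 15 to 20. The KO lists thus hold few marker genes of either kind, and the part that list length plays in the classes below was not tested.

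Many kept distal regions lay on a transcription start inside a gene, and the DNA there was rich in CpG. RefSeq start windows (300 bases, 250 before and 50 after an annotated transcript start, GRCm38.p6) are shown for 6 genes, with each CG in capitals. Stag1, which encodes a cohesin subunit, and Cd47, which encodes a surface signal that restrains engulfment, stand for kept regions with a peak in all 8 NIH3T3 libraries. Axin2, a feedback inhibitor of Wnt signalling, and Lck, the kinase that starts T cell receptor signalling, stand for kept regions with no NIH3T3 peak. Trat1, a T cell receptor adaptor, and Ikzf1, the lymphoid transcription factor Ikaros, stand for lost distal regions, also with no NIH3T3 peak.
Stag1: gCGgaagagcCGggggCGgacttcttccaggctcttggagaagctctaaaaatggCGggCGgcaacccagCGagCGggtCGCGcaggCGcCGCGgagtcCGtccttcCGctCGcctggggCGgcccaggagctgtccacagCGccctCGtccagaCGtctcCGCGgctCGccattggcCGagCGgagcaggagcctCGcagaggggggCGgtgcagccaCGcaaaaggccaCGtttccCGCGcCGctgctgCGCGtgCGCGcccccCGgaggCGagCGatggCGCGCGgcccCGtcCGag
Cd47: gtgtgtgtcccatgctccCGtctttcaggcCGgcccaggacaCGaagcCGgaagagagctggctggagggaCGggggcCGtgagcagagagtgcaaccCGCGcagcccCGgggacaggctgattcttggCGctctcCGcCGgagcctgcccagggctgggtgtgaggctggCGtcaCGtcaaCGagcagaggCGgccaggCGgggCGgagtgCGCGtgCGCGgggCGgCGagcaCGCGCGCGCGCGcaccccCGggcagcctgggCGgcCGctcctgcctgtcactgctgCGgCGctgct
Axin2: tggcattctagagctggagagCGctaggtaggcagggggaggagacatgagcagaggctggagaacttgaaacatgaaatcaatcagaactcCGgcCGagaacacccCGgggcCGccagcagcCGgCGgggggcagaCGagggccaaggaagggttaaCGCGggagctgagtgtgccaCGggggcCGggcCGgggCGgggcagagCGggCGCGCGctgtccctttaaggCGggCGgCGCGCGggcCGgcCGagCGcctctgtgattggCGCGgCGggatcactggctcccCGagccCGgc
Lck: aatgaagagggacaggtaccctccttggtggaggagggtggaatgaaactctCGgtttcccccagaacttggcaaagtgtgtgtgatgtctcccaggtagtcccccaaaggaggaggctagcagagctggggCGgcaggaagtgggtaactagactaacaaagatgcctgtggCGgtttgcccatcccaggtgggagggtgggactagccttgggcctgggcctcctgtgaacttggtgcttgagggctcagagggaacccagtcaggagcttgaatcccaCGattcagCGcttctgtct
Trat1: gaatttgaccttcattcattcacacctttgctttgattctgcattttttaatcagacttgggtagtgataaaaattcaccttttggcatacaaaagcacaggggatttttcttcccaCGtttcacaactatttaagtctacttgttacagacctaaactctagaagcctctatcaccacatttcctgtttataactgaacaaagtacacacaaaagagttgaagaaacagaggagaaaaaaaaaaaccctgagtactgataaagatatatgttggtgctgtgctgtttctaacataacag
Ikzf1: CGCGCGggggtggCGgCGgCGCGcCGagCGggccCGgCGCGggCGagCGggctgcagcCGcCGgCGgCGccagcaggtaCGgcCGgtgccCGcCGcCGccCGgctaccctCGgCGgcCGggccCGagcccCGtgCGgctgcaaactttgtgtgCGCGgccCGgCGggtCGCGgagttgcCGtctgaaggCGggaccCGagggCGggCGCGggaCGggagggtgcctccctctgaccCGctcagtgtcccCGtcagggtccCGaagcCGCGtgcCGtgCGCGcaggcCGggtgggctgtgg
The windows lie at chr9:100643198-100643497 (plus strand, Stag1), chr16:49855404-49855703 (plus, Cd47), chr11:108920099-108920398 (plus, Axin2), chr4:129558323-129558622 (minus, Lck), chr16:48772013-48772312 (minus, Trat1) and chr11:11685675-11685974 (plus, Ikzf1). The Stag1 window holds 43 CG dinucleotides and the Cd47 window 35. The Axin2 window holds 31 and the Lck window 5. Among the lost regions the Trat1 window holds 1, with a GC content of 35.3%, and the Ikzf1 window 52, with 81.3%, so a CpG-rich start was present on both sides. The 6 genes are examples and need not be typical. Windows at regions with no NIH3T3 peak held a median of 9 CG dinucleotides where kept and 6 where lost. Only 7.46% of such kept and 3.11% of such lost regions lay at a start window.

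In DP thymocytes the kept distal regions had wide peaks in WT and narrower ones in KO. The median peak width at them was 301.5 and 326 bp in the KO libraries, against 471 and 546 bp in the WT libraries. At 2371 of the 2852 (83.1%) both KO peaks were narrower than both WT peaks, and at 13 both were wider. The median ratio of KO to WT width was 0.682. At the 6387 kept gene-end regions the KO peaks were narrower at 69.5% and the median ratio was 0.770. In 2839 of the kept distal regions some bases were covered by all 4 libraries, so in the other 13 the peaks were joined only through each other. The merged kept distal regions were 561 bp wide in the median (quartiles 451 and 723 bp, at most 2144 bp), against 422 bp for distal regions in 1 KO library and 330 bp for lost ones.

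**Figure D1:**
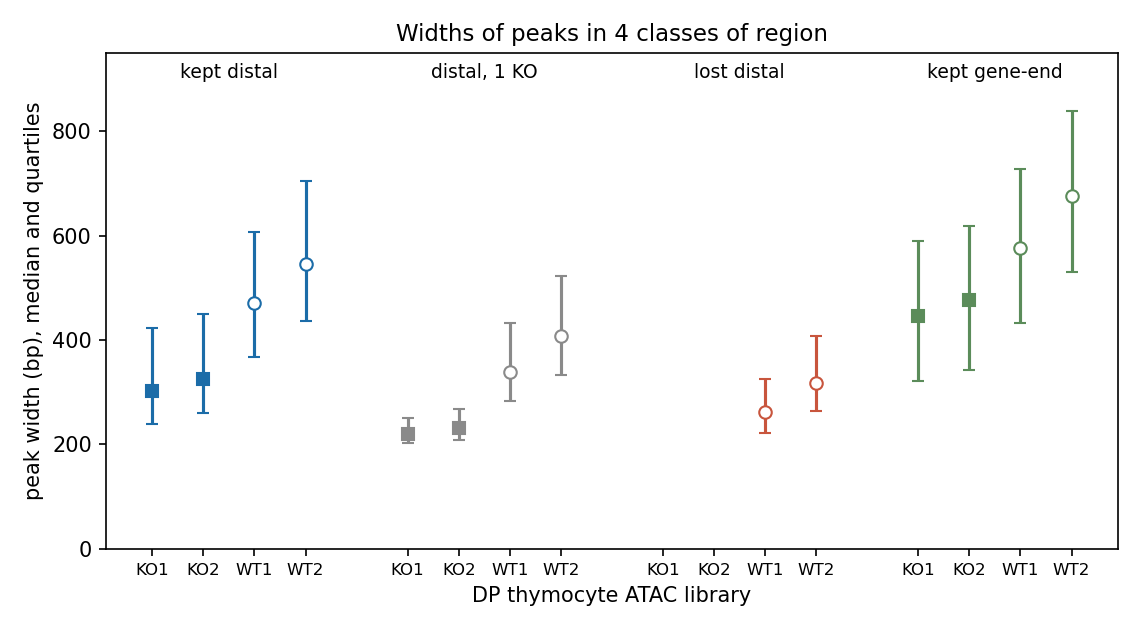
Width in bp of the ATAC-seq peaks at 4 classes of DP region, in KO replicates 1 and 2 (filled squares) and WT replicates 1 and 2 (open circles); marks are medians and bars the quartiles over regions. At kept distal regions the KO medians are 301.5 and 326 bp and the WT medians 471 and 546 bp, and lost distal regions have no KO peak by definition.

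How wide a peak was in WT went with whether KO also had one. Distal regions were divided into 5 classes of equal size by the width of their peak in WT replicate 1. In the narrowest class 38 of 2649 were kept (1.43%), in the middle class 324 of 2648 (12.2%) and in the widest (446 to 1998 bp) 1577 of 2648 (59.6%). Peak width is the only measure of strength in these lists, which hold no height, and narrow peaks at the edge of detection cannot be told apart from regions closed in KO.

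The 10 kept regions whose narrowest peak over the 4 libraries was widest were all open in all 8 NIH3T3 libraries as well. They include regions near or in Zfp958, Chd9, Clock, Slc39a10, Fbxo33, Ptpdc1, Kat6b and Ankrd12, and at chromosome 14. Clock encodes a core transcription factor of the circadian clock, Chd9 a chromatin remodeller and Kat6b a histone acetyltransferase. The Chd9 region (chr8:90907970-90909505) lies 80435 bp from a gene end, inside the gene. The chromosome 14 region, chr14:115040313-115042456, was the widest merged kept region at 2144 bp. Its peaks spanned 1020 and 1093 bp in KO libraries, against 1738 and 2093 bp in WT libraries.

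That chromosome 14 region ends 1228 bp before the mature sequence of miR-17-5p, the first microRNA of the Mir17 cluster. The cluster is known to sustain proliferation and survival of lymphocytes. Its main mature microRNAs (RefSeq, GRCm38.p6, plus strand) are shown because they are the nearest annotated products to the region, with the seed, bases 2 to 8, in capitals.
mmu-miR-17-5p: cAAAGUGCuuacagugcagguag
mmu-miR-20a-5p: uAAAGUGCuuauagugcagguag
mmu-miR-18a-5p: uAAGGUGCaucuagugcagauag
mmu-miR-19a-3p: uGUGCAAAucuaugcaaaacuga
mmu-miR-19b-3p: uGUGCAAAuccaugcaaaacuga
mmu-miR-92a-3p: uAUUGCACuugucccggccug
miR-17-5p and miR-20a-5p share the seed AAAGUGC, miR-19a-3p and miR-19b-3p share GUGCAAA, and the seeds of miR-18a-5p and miR-92a-3p stand alone among these. Over the genome, 18 of 2852 kept distal regions and 29 of 8620 lost ones lay within 2 kb of an annotated hairpin.

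The kept distal regions lay nearer to genes than the lost ones, and more often inside them. Inside a protein-coding gene lay 1766 (61.9%, 95% Wilson interval 60.1 to 63.7%), against 4565 lost regions (52.96%, 51.9 to 54.01%). The median distance to a gene end was 13514 bp for kept and 21622.5 bp for lost regions. No protein-coding gene lay within 50 kb of 330 kept (11.6%) and 1373 lost regions (15.9%). These intervals hold counting error alone, and regions that neighbour each other are not independent.

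The 1 kb limit divides a gradual trend. Of regions with a peak in both WT libraries, 436 of 999 (43.6%) at over 500 to 1000 bp were held by all 4 libraries, and 37.5% of 573 at over 1000 to 1500 bp. Beyond 50 kb the share was 571 of 3367 (16.96%). The closest regions inside the limit lay at Polm (1001 bp; peaks of 572 and 641 bp in KO and 796 and 854 bp in WT), Stx4a (1002 bp) and Whrn (1007 bp). The closest ones left out lay at Fam126a (1000 bp), Lemd2 (998 bp) and Ptpn18 (996 bp; peaks of 430 and 523 bp in KO and 460 and 620 bp in WT).

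**Figure D2:**
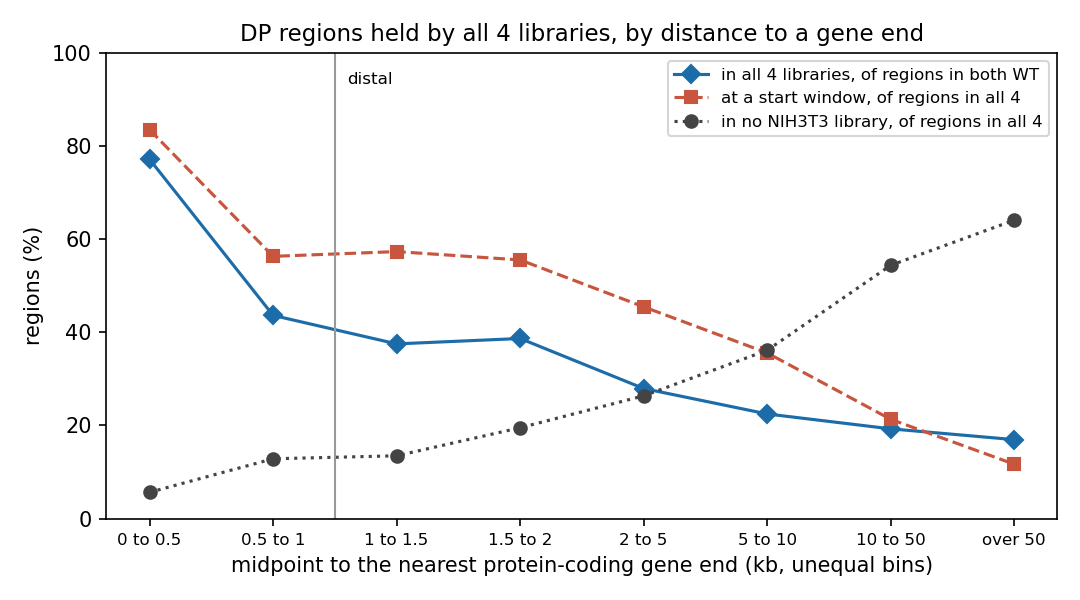
Percent of DP regions against the distance of their midpoint from the nearest protein-coding gene end in kb, in bins of unequal width: the share held by all 4 libraries among regions in both WT libraries (diamonds), and, among those held by all 4, the share at a RefSeq start window (squares) and the share with no NIH3T3 peak (circles). The kept share is 43.6% just inside 1 kb, 37.5% just beyond it and 16.96% beyond 50 kb, and the share with no NIH3T3 peak is 64.1% beyond 50 kb.

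Transcript starts were far more frequent at the kept distal regions. The start table used here has no entries on chromosome 18 and covers 17492 of 21887 protein-coding genes, so the shares are lower limits over the 2759 kept regions elsewhere. Of these, 825 (29.9%, 28.2 to 31.6%) overlapped a start window. The share was 10.05% of 1702 (8.71 to 11.6%) for distal regions in 1 KO library and 315 of 8288 (3.80%, 3.41 to 4.23%) for lost ones. At kept gene-end regions it was 5077 of 6215 (81.7%). The difference between kept and lost distal regions was 26.1 percentage points (24.4 to 27.9), and 14.7 points (12.8 to 16.8) among merged regions 300 to 600 bp wide. Among regions whose WT replicate 1 peak was 300 to 600 bp wide it was 19.5 points (17.4 to 21.6), so part of the difference moves with width.

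Most of these starts belonged to protein-coding genes. Of the 825, 616 (74.7%) lay at starts of protein-coding genes only, 18.1% at starts of long noncoding RNA genes only, and 60 (7.27%) at both. Among the 676 at a protein-coding start, 657 lay only at starts more than 1 kb from the gene's outermost one. The distal rule, which leaves out midpoints within 1 kb of a gene end, nearly fixes this count. Lost regions and those in 1 KO library were also almost all at internal starts where they lay at a protein-coding start. Internal position therefore does not set the kept regions apart. The 315 lost regions at starts were divided more evenly, with 48.3% at protein-coding starts only, 48.9% at noncoding ones only and 9 regions at both.

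The kept start windows were GC-rich. Over 1037 windows at kept distal regions the median GC content was 63.3% with 23 CG dinucleotides, against 53.7% and 9 over 350 windows at lost distal regions. The 6866 windows at kept gene-end regions had 63.7% and 25, while over all 32817 windows the medians were 52.7% and 7. Kept windows were close to those of gene ends in both measures, and lost ones close to all windows together. Within the kept regions the 728 windows with a peak in all 8 NIH3T3 libraries had 63.3% and 24, while those with none had 56.3% and 9.

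Short motifs were searched in these windows on both strands. The 1037 kept windows lie at 825 regions and the 350 lost ones at 315. Windows of the same region can overlap, so they are not independent and the intervals below are too narrow. The TCF motif (CTTTGAT or CTTTGAA) was in 60 of 1037 kept windows (5.79%, 4.52 to 7.38%), against 34 of 350 lost windows (9.71%, 7.04 to 13.3%) and 8.65% of all windows. The RUNX motif TGTGGTT was in 2.99% of kept, 6.86% of lost and 5.27% of all windows. The CTCF core (AGGNGGC or AGATGGC) was in 50.7% of kept, 38.6% of lost and 33.9% of all windows. CCGGAAG, an ETS motif with a CG in it, was in 16.4% of kept, 5.14% of lost and 8.86% of all windows. It does not contain AGGAAG, the other ETS motif searched, which was in 33.4% of kept, 43.7% of lost and 35.4% of all windows. GC-rich motifs are more frequent in GC-rich DNA, and their excess at a given GC content was not tested. Beyond the start windows no sequence of the regions was read.

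The NIH3T3 libraries took no part in choosing the regions. Openness in these fibroblasts, which lack the T lineage programme, is thus a separate readout. Kept distal regions fell largely into 2 kinds. No NIH3T3 library had a peak at 1266 (44.4%), and all 8 had one at 1071 (37.6%). Only 515 (18.1%) lay between. Of the lost distal regions 5856 (67.9%) had a peak in no library and 582 (6.75%) in all 8.

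Per library, 49.7, 49.7, 48.5 and 53.2% of kept distal regions held a peak in Tcf-1 RV replicates 1 to 4, and 38.3, 47.5, 51.2 and 53.5% in Empty RV replicates 1 to 4. Over all 8 libraries the share was 48.9 ± 4.80% for kept distal regions, 27.4 ± 6.23% for those in 1 KO library, 19.3 ± 6.64% for lost ones and 90.2 ± 4.95% for kept gene-end regions (SD, n = 8). The kept share exceeded the lost share in 8 of 8 libraries, by 29.6 points on average (25.2 to 32.6; exact two-sided sign-flip permutation p = 0.0078125, the smallest 8 libraries can give; Benjamini-Hochberg adjusted p = 0.0109 over 7 tests). It lay below the share of kept gene-end regions in 8 of 8 libraries, with a mean difference of -41.3 points (p = 0.0078125 and adjusted p = 0.0109 in the same exact test). Libraries of equal replicate number, which deviated together, were also averaged first, with the replicate number as a block. The 4 pairs then gave exact sign-flip p = 0.125 for both differences, the smallest p that 4 pairs can give. No call can be made from the block, and both calls rest on counting the 8 libraries as separate. Width moved with the difference: the kept share exceeded the lost share by 19.5 points among merged regions 300 to 600 bp wide, and by 24.5 points among regions whose WT replicate 1 peak was that wide.

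**Figure D3:**
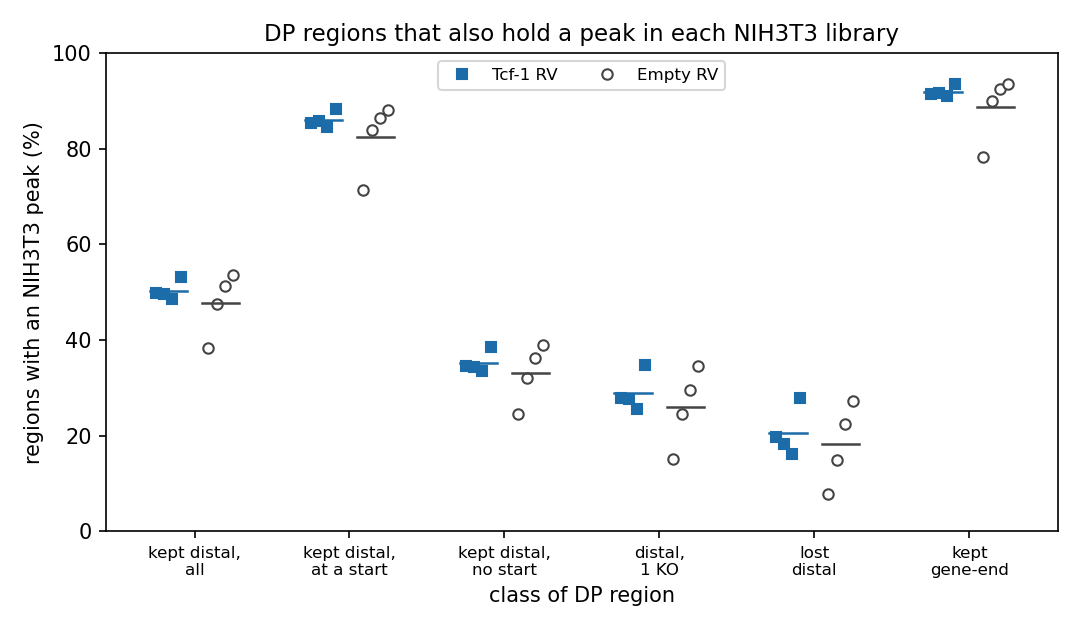
Percent of DP regions of each class that hold a peak in each NIH3T3 ATAC-seq library, with Tcf-1 RV (filled squares, n = 4) left of Empty RV (open circles, n = 4); lines are means. Kept distal regions lie at 38.3 to 53.5%, above lost distal regions at 7.87 to 27.9% and below kept gene-end regions at 78.3 to 93.5%.

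A start window divided the kept distal regions. At the 825 with one, 84.2 ± 5.45% held a peak per NIH3T3 library, against 34.1 ± 4.52% of the 1934 without (SD, n = 8), a difference of 50.1 points in the same direction in 8 of 8 libraries (exact sign-flip p = 0.0078125, adjusted p = 0.0109). Of those at a start, 584 (70.8%) were open in all 8 libraries and 91 (11.03%) in none. Away from starts, 459 (23.7%) were open in all 8 and 1129 (58.4%) in none. Away from starts, the kept share exceeded the lost share (18.8 ± 6.61%) by 15.2 points (11.04 to 17.7; 8 of 8 libraries, exact p = 0.0078125, adjusted p = 0.0109). At starts it exceeded that of lost regions (34.05 ± 6.96%) by 50.1 points (46.3 to 52.7, with the same exact p and adjusted p). With the replicate number as a block these 3 differences also had exact p = 0.125, and their calls do not hold.

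**Figure D4:**
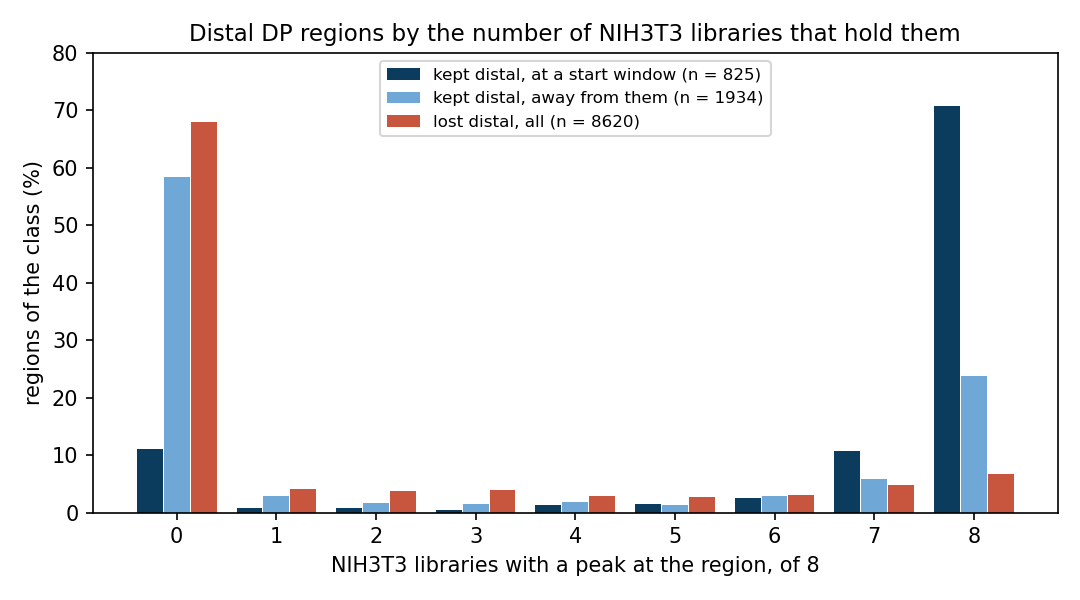
Percent of distal DP regions by the number of the 8 NIH3T3 libraries with a peak there, for kept distal regions at a RefSeq start window (n = 825), kept distal regions away from them (n = 1934) and lost distal regions (n = 8620). At starts 70.8% are open in all 8 libraries, away from starts 58.4% are open in none, and 67.9% of lost regions are open in none.

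No difference at kept distal regions was detected when Tcf-1 was added to the fibroblasts. The share of kept distal regions with a peak was 50.3 ± 2.01% with Tcf-1 RV and 47.6 ± 6.71% with Empty RV (SD, n = 4 each), a difference of 2.65 points that was within the spread of the libraries (exact two-sided permutation p = 0.629, adjusted p = 0.733; 0.0286 is the smallest p for 4 against 4). The difference was 6.82 points within the libraries whose file names carry a day 2 tag, and -1.53 points within those with a day 4 tag, so the direction does not hold in both. The gap between kept and lost shares differed by 0.272 points between the arms (exact p = 0.886, adjusted p = 0.886). At 1 of 2852 kept distal regions a peak was present with Tcf-1 RV in 4 of 4 libraries and with Empty RV in 0 of 4, against 18 of all 31628 DP regions (0.0569%) and 839 of 77882 NIH3T3 regions (1.08%). That region, chr1:88654811-88655217, holds a Tcf-1 summit and lies 43211 bp from Arl4c. The reverse pattern was found at 0 kept distal regions (Wilson upper limit 0.135%), beside 0 DP regions (0%) and 86 NIH3T3 regions (0.11%).

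The Tcf-1 bound sites are 1 pooled list of 40562 summits from NIH3T3 with Tcf-1 RV, so shares have no replicate error. A summit lay in 376 kept distal regions (13.2%, 12.0 to 14.5%), in 7.63% of those in 1 KO library, in 509 lost ones (5.90%, 5.43 to 6.42%) and in 1263 kept gene-end regions (19.8%). The regions kept without Tcf-1 thus held fibroblast Tcf-1 summits more often than the lost ones. Width moved with this share: within 200 bp around the midpoint the difference between kept and lost was 3.13 points, against 7.28 points over whole regions. The share also moved with openness in NIH3T3. Where all 8 libraries had a peak, 25.6% of kept and 25.6% of lost distal regions held a summit. Where 1 to 7 had one, 14.2% of kept (11.4 to 17.5%) and 10.6% of lost regions (9.36 to 11.9%) did, and where none had, 2.29% (29 regions) and 2.203%.

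Of the 29 kept regions with a summit but no NIH3T3 peak, 6 had no protein-coding gene within 50 kb. The other 23 were assigned to a gene, among them Abl2, Acer2, Inpp5d and Tnfrsf1a, which were picked after their values were seen. The list of Wnt targets holds 3 of the 23. It has 5 kept regions with no NIH3T3 peak, so 3 of 5 held a summit, beside 23 of 1044 over all genes, a small count with no test. Of its genes, Tcf7, with 2 of the 5 regions, and Lef1, with 1, also belong to the list of T lineage transcription factors used below. The 3 with a summit lie in Axin2, at the start window printed above (chr11:108920125-108920946), and in Cd44, an adhesion receptor gene known as a Wnt target (chr2:102867451-102868055). The other lies 30984 bp from Tcf7, which encodes Tcf-1 (chr11:52314015-52314720). Peaks at the Axin2 region were 615 and 631 bp wide in KO and 811 and 811 bp in WT, and at the Tcf7 region 469 and 403 bp in KO and 624 and 706 bp in WT. At these and at Cd44 both KO peaks were narrower than both WT peaks.

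Repressive marks of NIH3T3 covered slightly smaller shares of kept than of lost distal regions, and the settings differed on whether the interval of the difference included 0. H3K27me3 islands called in both replicates held the midpoints of 9.05% of kept (8.05 to 10.2%) and 10.1% of lost regions (9.44 to 10.7%), a difference of -1.01 points (-2.20 to 0.257). It was -1.89 points (-3.23 to -0.470) with the islands of replicate 1 alone and -1.35 points (-2.41 to -0.214) with a stricter adjusted p-value for islands. Islands of H3K9me3 held 4.84% of kept (4.11 to 5.69%) and 5.51% of lost regions (5.05 to 6.01%), a difference of -0.672 points (-1.56 to 0.296), and with replicate 2 alone the difference was -1.12 points (-2.16 to -0.00727). In both classes the marks were more frequent where fibroblasts had no peak. H3K27me3 was at 17.4% of kept (15.4 to 19.6%) and 13.01% of lost regions (12.2 to 13.9%) with no NIH3T3 peak, so here the kept share was the higher one and the intervals did not overlap. With a peak in all 8 libraries it was at 0.654% of kept and 1.37% of lost regions. H3K9me3 was at 8.06% of kept (6.68 to 9.69%) and 6.49% of lost regions (5.89 to 7.15%) with no NIH3T3 peak, and at 1.21% and 2.58% with a peak in all 8.

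Regions were then assigned to the nearest protein-coding gene within 50 kb. Of 5931 genes with a distal region in both WT libraries, 2172 (36.6%) had at least 1 kept region, 250 had exactly 2 and 41 had 3 or more. At 1072 genes kept and lost distal regions stood side by side. All of 2 or more distal regions were kept at 77 genes, and all of 3 at Ccnl1, Copb1, Kmt2e, Nr4a1 and Yy1. These counts are given without the number of genes that had as many distal regions. Ccnl1 encodes a cyclin of the splicing machinery, Copb1 a coat protein of Golgi vesicles, Kmt2e a chromatin protein, Yy1 a zinc finger factor and Nr4a1 the nuclear receptor Nur77, which T cell receptor signals induce.

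The 20 genes with the most kept regions held 3 to 6 each. They include genes with many distal regions, so a high count is not a high share. Ppm1h, a protein phosphatase gene, kept 6 of 12 regions, and 5 of the 6 had no NIH3T3 peak. Ccnd3 encodes cyclin D3, which drives the expansion of thymocytes before the DP stage, and kept 5 of 6. Hivep2, a zinc finger gene, kept 5 of 10, Pakap 5 of 12 and the cAMP phosphodiesterase gene Pde4d 5 of 21 (23.8%), close to the 22.3% over all genes. There were 4 kept regions each at Ripor2 (4 of 5), Trappc9 (4 of 6), Bcl2l1 (4 of 7), Maml3 (4 of 11), Ldlrad4 (4 of 12), Akap13 (4 of 13) and Nfia (4 of 19). There were 3 each at Cd47 (3 of 4), Camk2d (3 of 5) and Lrrc8c (3 of 5), beside the 5 genes kept in full.

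Within these genes the kept regions differed in their openness in fibroblasts. All 4 of Ripor2, a regulator of RhoA, all 4 of Ldlrad4, an inhibitor of TGF-beta signalling, and all 3 of Lrrc8c, a subunit of an anion channel, had no NIH3T3 peak in any library. All 3 of Camk2d, a calcium-dependent kinase, had one in all 8. At Ccnd3, 3 regions inside the gene had no NIH3T3 peak, such as chr17:47541901-47542655 with widths of 351 and 376 bp in KO and 507 and 755 bp in WT. The kept Ccnd3 region at a start window, chr17:47593344-47593732, had a peak in all 8.

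The kept distal regions of T lineage genes mostly had no peak in fibroblasts. Lists of the T cell receptor and its signalling, DP thymocyte and recombination genes, T lineage transcription factors, and cytokine and homing receptors hold 67 genes with a distal region in both WT libraries. They kept 53 regions, 22.4% of theirs, beside 2522 of 11313 (22.3%) over all genes. Of the 53, 47 (88.7%) had no peak in any NIH3T3 library and 2 had one in all 8, beside 41.4% with none over all genes. Only 5 of the 53 lay at a start window, and of all kept distal regions away from start windows 58.4% had no NIH3T3 peak. The lost regions of the same genes were not compared.

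In the T cell receptor list 8 of 14 genes had a kept region and 12 of 66 regions were kept (18.2%). Lck, which had 1 distal region, kept it: chr4:129558260-129558949, 10260 bp from a gene end, at the start window printed above. Its peaks were 297 and 446 bp wide in KO and 503 and 690 bp in WT. Lcp2, the adaptor SLP-76, kept 2 of 4 regions, and Ptprc, the phosphatase CD45, 2 of 5. Cd247, the receptor zeta chain, kept 1 of 10 and lost 7. Fyn kept 0 of 8, Prkcq 0 of 7 and Fyb 0 of 4.

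Among DP thymocyte genes 10 of 17 had a kept region and 14 of 49 regions were kept (28.6%). Arpp21 kept 2 of 5 regions, Cd69, an early activation marker, 2 of 5, and Cd1d1, which presents lipids to natural killer T cells, 2 of 3. Cd8a, a coreceptor of the stage, kept 1 of 3 and Dntt, the terminal transferase of V(D)J recombination, 1 of 3. The coreceptor genes Cd4 and Cd8b1 kept 0 of 2 each, and Slamf6 and Lypd6b 0 of 4 each. Both Cd4 regions had a peak in 1 KO library.

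Among T lineage transcription factors 12 of 20 genes had a kept region and 16 of 85 regions were kept (18.8%). Ets1 kept 3 of 10, with 5 others in 1 KO library and 2 lost. Tcf7 itself kept 2 of 5. Runx1 kept 2 of 11 with 8 lost. Tox kept 0 of 8, Ikzf2 0 of 5 and Runx3 0 of 3, and all of these regions were lost. Single kept regions stood at Bcl11b (1 of 5), Lef1, the relative of Tcf7 (1 of 7), Gata3 (1 of 4), and Ikzf1 (1 of 8). The kept Ikzf1 region, chr11:11725778-11726579, lies 41216 bp from a gene end, in the same gene as the lost start window printed above.

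Cytokine and homing receptors had kept regions at 9 of 16 genes, and 11 of 37 regions were kept (29.7%), all 11 without an NIH3T3 peak. Ccr9, which guides thymocytes and gut-homing T cells, kept both of its 2 regions, at 10294 and 12574 bp from the gene. Il6ra, the interleukin-6 receptor gene, also kept both of 2. Of these, chr3:89870925-89871330, was an exception in width: its peaks were 331 and 393 bp wide in KO and at most 363 bp in WT. Cxcr4 kept 1 of 6 and Il2ra 1 of 5, while Itga4 kept 0 of 3.

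Of the regions of apoptosis and survival genes, 10 of 23 were kept (43.5%, beside 22.3% over all genes), at 4 of 10 genes (40%, beside 36.6%), and 4 of the 10 kept regions lay at 1 gene. That gene is Bcl2l1, which encodes Bcl-xL, the main survival protein of DP thymocytes, and kept 4 of 7. Bbc3 and Bcl2l11, which encode the death inducers Puma and Bim, kept both of their 2 regions, and Bcl2 kept 2 of 4. Mcl1 kept 0 of 3. The 2 kept Bcl2l1 regions at start windows had a peak in 7 and 8 NIH3T3 libraries, and the 2 away from starts in none.

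In 3 small lists of more widely used genes the kept share and the share open in fibroblasts lay above those over all genes, where 22.3% of distal regions were kept and 40.2% of the kept ones had a peak in all 8 NIH3T3 libraries. AP-1 genes kept 8 of 17 regions (47.1%), 5 of the 8 open in all 8 libraries (62.5%), and Bach2, a repressor that binds AP-1 sites, kept 2 of 5, both with no NIH3T3 peak. Genes of chromatin architecture kept 8 of 15 (53.3%), with 5 of the 8 open in all 8 libraries, among them the start windows of Stag1 and Wapl, the cohesin release factor. Housekeeping genes kept 6 of 12, with 4 of the 6 open in all 8. These counts are small and carry no test. Wnt targets kept 5 of 28 regions (17.9%), all without an NIH3T3 peak. Tcf7 (2 kept) and Lef1 (1 kept) are counted both here and among the T lineage transcription factors.

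**Figure D5:**
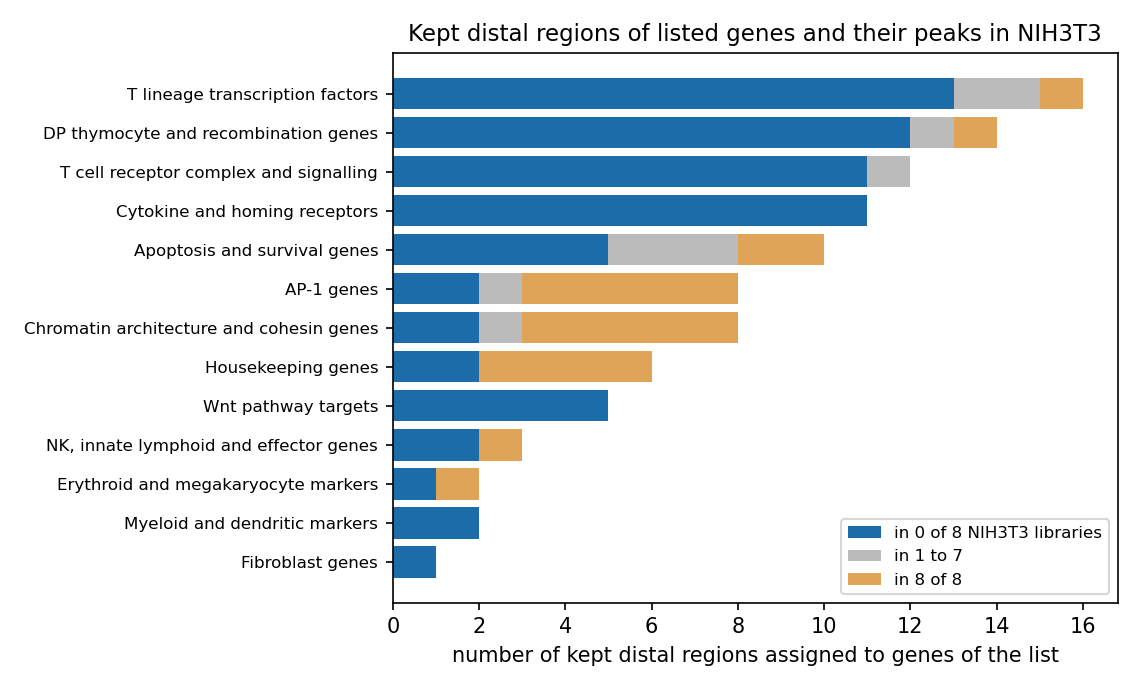
Number of kept distal regions assigned to genes of each list (horizontal axis), divided into those with a peak in 0, in 1 to 7 and in all 8 NIH3T3 libraries. The 4 T lineage lists hold 53 kept regions, 47 of them with no NIH3T3 peak, while AP-1, chromatin architecture and housekeeping lists have 5 of 8, 5 of 8 and 4 of 6 kept regions open in all 8.

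Lists of other cell types had few distal regions in all, 4 to 12 each, too few to set their kept share apart from the 22.3% over all genes. B cell markers kept 0 of 11, which allows up to 27.3%, with 10 lost. Thymic epithelium markers kept 0 of 7, which allows up to 42.9%, with 7 lost. Fibroblast genes kept 1 of 4, myeloid and dendritic markers 2 of 7, and erythroid and megakaryocyte markers 2 of 5. The kept region of the fibroblast list is at Thy1, which is also in the DP thymocyte list, and it had no NIH3T3 peak. NK, innate lymphoid and effector genes kept 3 of 12, at Ifng, Prdm1 and Klrb1c.

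At the antigen receptor loci the kept share is read beside 21.5% over all distal regions and 16.96% beyond 50 kb. Because only protein-coding genes counted as genes, regions among variable segments are distal, and they include 3 of the 5 kept regions farthest from any gene end. Between the outermost segments of the immunoglobulin heavy chain locus (Igh, chromosome 12), 7 of 87 distal regions were kept (8.05%) and 71 lost. The 7 had no NIH3T3 peak, and the farthest, chr12:114378689-114379412, lies 832636 bp from a gene end and in an H3K9me3 island of NIH3T3. At the T cell receptor alpha and delta locus (Tra and Trd, chromosome 14) 3 of 15 were kept (20%). At the beta locus (Trb, chromosome 6) 1 of 12 was kept, chr6:41554165-41554976, between the constant gene Trbc2 and the variable gene Trbv31, the interval that holds the known Trb enhancer. Its peaks were 465 and 579 bp wide in KO and 599 and 812 bp in WT, narrower in both KO libraries. At the immunoglobulin kappa locus (Igk, chromosome 6) 1 of 4 was kept, with a peak in 6 NIH3T3 libraries, and at the gamma locus (Trg, chromosome 13) 0 of 3, too few to limit the share.

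Few kept distal regions had another close by. Another kept distal region lay within 10 kb of 250 (8.77%), a lost one within 10 kb of 548 (19.2%), and a kept gene-end region within 10 kb of 8.52%. For lost distal regions the corresponding shares were 6.95% for a kept distal, 22.1% for another lost and 7.22% for a kept gene-end region.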

How the data were processed

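ATAC-seq was measured in 12 libraries, 2 each of KO and WT DP thymocytes and 4 each of Tcf-1 RV and Empty RV NIH3T3. The series has 321 samples, and its single-cell ATAC-seq and RNA-seq were not used here. The tools named in the submitters' processing notes are MACS2, Picard, Trim Galore, FastQC, STAR 2.5 and Bowtie2 2.2.9, and the builds mm10, GRCm38 and GRCh37, with no role for each. Coordinates are GRCm38 (mm10), 1-based. The deposited ATAC-seq files hold peak positions only. Tcf-1 summits were deposited as 1 pooled list, with a score of unstated scale. The deposited H3K27me3 and H3K9me3 files hold SICER islands per library, with read counts of ChIP and control, their ratio (fold) and an adjusted p-value, at most 0.00997. Of these values only the score and the adjusted p-value were used, as thresholds of alternatives.

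Peaks on unplaced sequences (293) were left out, and peaks of the 4 DP libraries were merged at 1 bp overlap (Python 3.11.15, pandas 2.3.3, scipy 1.17.1). A region held a readout if an NIH3T3 peak or start window overlapped it by 1 bp or a summit lay in it, and a mark if its midpoint lay in an island of both replicates. Intervals for shares are Wilson 95%, and those for differences of shares combine them by Newcombe's method. They cover counting error only, depth is unknown, and p-values measure the spread between libraries, which may be technical. The 7 exact tests over NIH3T3 libraries were adjusted together by Benjamini-Hochberg. Merging, class calls and tests were tested on simulated data. The planned motif search around midpoints needs a genome and was not run; motifs were read only in the RefSeq start windows, whose splits were added later.

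Genes named are the 20 with the most kept distal regions, listed genes with at least 2, and the widest and farthest regions; other listed genes were named after their values were seen. Some genes that meet this rule are not reported here. The 15 lists hold 239 genes, of which 238 were in the gene table. Members, lists and tests were chosen with earlier results of these data known. NIH3T3 libraries of the same replicate number deviated together (correlation over regions 0.125 to 0.260 in the 4 pairs, against -0.243 to 0.194 between numbers). Between different numbers it was 0.0648 to 0.194 with the same day tag and -0.243 to -0.0895 with different tags. A shared number thus cannot be clearly told apart from a shared day tag. The numbers of the labels were treated as pairs. The DP numbers did not deviate together (-0.0505). Day 2 and day 4 come from tags in file names, replicates 1 and 2 against 3 and 4 of both arms, and served only as batches.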

Additional observations from a re-analysis of the deposited data

Results flagged for a closer look

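The response of the kept distal regions to Tcf-1 in NIH3T3 pointed in opposite directions in the libraries of the 2 day tags. With the day 2 tag, the share with a peak was higher with Tcf-1 RV than with Empty RV in both pairs, by 11.5 and 2.17 points and by 6.82 points on average (49.7% against 42.9%). With the day 4 tag, the differences were -2.70 and -0.351 points, with a mean of -1.53 points (50.8% against 52.3%). This difference between the tags was not tested. Lost distal regions showed the same order, with 7.55 points at day 2 and -2.80 points at day 4, and Empty RV replicate 1, the shortest NIH3T3 peak list with 22778 peaks, had the lowest share. A screen of 10 groups of 4 libraries flagged no library as standing apart from the other 3 of its group. Empty RV replicate 1 still lay well below the other Empty RV libraries. Of kept distal regions at start windows it held 71.3%, against 83.9, 86.4 and 88.1% in replicates 2 to 4. Without it, the difference between the arms at kept distal regions was -0.473 points, against 2.65 points with all libraries. The screen therefore does not exclude that this library sets the direction of the day 2 difference.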

How the results depend on the processing

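The number of kept distal regions was 1782 when each peak had to span 50% of its region or more, 1893 with equally many of the widest peaks per DP library, and 2872 to 4105 when 1 DP library was left out. The difference between kept and lost shares with an NIH3T3 peak kept its direction and its side of p = 0.05 under every alternative run except the replicate block and the day tags alone, where 4 pairs or libraries cannot go below p = 0.125: it was 29.6 points with the block (exact sign-flip p = 0.125), 31.1 points at day 2 and 28.1 at day 4, 21.996 to 30.5 with 1 library left out and 19.5 among merged regions of 300 to 600 bp. With the block, added after seeing the data, p was 0.125 also against kept gene-end regions (-41.3 points), for starts against no starts (50.1), away from starts (15.2) and at starts (50.1). At day 2, at day 4 and with 1 library left out, these 4 differences were -41.6, -41.1 and -46.1 to -41.1 points against kept gene-end regions, 50.2, 50.0 and 49.9 to 50.6 for starts against no starts, 16.7, 13.8 and 11.2 to 16.2 away from starts, and 51.5, 48.8 and 41.9 to 50.7 at starts. The difference in Tcf-1 summits was 5.71 points beyond 5 kb, 3.13 within 200 bp of the midpoint, 3.44 at widths of 300 to 600 bp, 4.05 at such WT replicate 1 widths, 1.554 for summits at or above the median score, and 5.41 to 8.42 without 1 DP library. That at start windows was 18.5, 20.8, 14.7 and 19.5 points under the first 4 of these, and 19.3 to 26.3 without 1 DP library, lowest without KO replicate 1. Tcf-1 RV minus Empty RV was -1.53 points at day 4, and -0.473 to 4.61 without 1 library, negative without Empty RV replicate 1. Its interaction was -0.204 (beyond 5 kb), -0.0655 (WT widths of 300 to 600 bp), -0.727 (day 2) and -0.818 to 1.78 (1 library left out; -0.274 and -0.572 without Tcf-1 RV replicates 2 and 3). With the replicate number as a block, these 2 differences were 2.65 points (exact sign-flip p = 0.75) and 0.272 points (p = 1). When a gain needed only 3 of 4 Tcf-1 RV libraries, 3 kept regions were gained. The causes were not tested.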

Other observations

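The 77 genes whose 2 or more distal regions were all kept fell on both sides of the division by fibroblast openness. At 19 of them none of the regions had a peak in any NIH3T3 library, and at 13 every one had a peak in all 8. Over all genes 41.4% of kept regions had no NIH3T3 peak and 40.2% had one in all 8. Whether the counts of 19 and 13 exceed what these shares would give was not tested. The 77 are given without the number of all genes with 2 or more distal regions, so they are no share. The genes named here were picked after their values were seen. Among the 19 were Ccr9 and Il6ra, Anxa2, which encodes the membrane-binding protein annexin A2, Bst1, which encodes the surface enzyme CD157, and Dusp5, which encodes a phosphatase of the ERK kinases. The Anxa2 region chr9:69470882-69471510 had peaks of 368 and 440 bp in KO libraries, against 510 and 629 bp in WT libraries. The Bst1 region chr5:43824490-43825073 had 390 and 385 bp in KO libraries, against 534 and 560 bp in WT libraries. Among the 13 were Sin3a, a scaffold of histone deacetylase complexes, Nfyc, a subunit of the CCAAT-binding factor NF-Y, and Chd2, a chromatin remodeller. Each of these 3 had at least 1 region at a start window, as had 10 of the 13, against 4 of the 19.

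Egr2, an early growth response factor that T cell receptor signals induce, held a region of each kind. The one inside the gene, chr10:67537031-67537967, lay at a start window and was open in all 8 NIH3T3 libraries, with peaks of 311 and 535 bp in KO libraries, against 890 and 936 bp in WT libraries. The one at 30710 bp from a gene end had no NIH3T3 peak, and its peaks were 484 and 293 bp in KO libraries, against 627 and 671 bp in WT libraries. Both were narrower in both KO libraries than in both WT libraries.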
